A study of Saccharomyces cerevisiae with 16 samples.

Results

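The late shift in PHO84c cells of Saccharomyces cerevisiae was described from 4 of the 16 samples of the series, namely the PHO84c sample at 23 h and the PHO84c samples at 1, 5 and 8 h after transfer. The 4 samples were chosen by strain and time from their titles, without regard to their values, and all probes were used. PHO84c is the name the labels give to a yeast strain described as having abundant PHO84c, and the other strain of the series is wild type (WT). Both strains were washed out of log-phase culture (optical density 0.5) and diluted to 0.05 in synthetic complete medium with 0.5 mM phosphate, the same level in all samples. The sources used here do not say how the PHO84c strain was built, which ploidy and mating type it has, or how many cultures stand behind a sample.

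Pho84 is the main high-affinity phosphate transporter of the yeast plasma membrane. When phosphate runs short, the cyclin and kinase pair Pho80 and Pho85 is held inactive by Pho81, the transcription factor Pho4 stays in the nucleus, and with Pho2 it turns on the PHO regulon, which includes phosphatases, transporters and the complex that stores phosphate as polyphosphate in the vacuole. The series title asks whether abundant high-affinity transporters delay this response. Yeast cultures also leave exponential growth with time, and genes for ribosome assembly, respiration, storage carbohydrates and autophagy are known to change then.

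RNA was measured on dual-colour Agilent yeast arrays, and each deposited value was read as the log2 ratio of a Cy3 sample to PHO84c cells at 0 h. That reference is common to the 4 samples and cancels in the difference between them. The 3 early samples are different times rather than replicates, so their spread holds change between 1 and 8 h as well as noise. The 23 h sample had no replicate and was assumed to vary as the early samples do. The p-values rest on that spread alone, which may in part be technical. Each sample lay on an array of its own (block 5 at 23 h, and blocks 4, 3 and 6 at 1, 5 and 8 h, of 1 slide), so time and array cannot be told apart. Phosphate use, culture density and age also cannot be told apart from time. The values carry no signal level, and the number of arrays limits their precision.

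Of 6255 probes, 1608 had a listed gene name, and a name below stands for the probe listed under it. These names should be read with care, because probes for near-identical gene copies did not move together. In 10 pairs of ribosomal protein copies the shifts differed by a median of 1.88 on the log2 scale, and 8 pairs lay over 2-fold apart. RPL11A and RPL11B shifted by -1.50 and 4.04, and RPL1A and RPL1B by 2.29 and -2.97. Over 53 ribosomal protein probes the shifts had a standard deviation of 1.76, against 1.77 over all probes tested. Probes under these names were thus spread as widely as probes at large. The gene and list results below rest on the listed names, and whether the names hold was not tested. No probe was listed as PHO84, so the strain label could not be checked on its own transcript. Of the haploid markers, MFA1, MFA2, STE3 and STE6 were listed, as were MATALPHA1 and MATALPHA2, and STE2, BAR1 and SAG1 were not.

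Between 8 and 23 h, about as many probes in PHO84c cells changed by 2-fold or more as did not. Few had changed that far between the early samples. At 23 h, 49% of the probes with a value were within 2-fold of their level at 0 h, against 97%, 98.4% and 98.9% at 1, 5 and 8 h. The standard deviation (SD) over probes was 1.68 at 23 h, against 0.439, 0.374 and 0.325 at the early times. The values at 23 h ran from -2.45 (5th percentile) to 3.06 (95th percentile), against -0.65 to 0.70 at 1 h and -0.50 to 0.53 at 8 h. Neighbouring early samples differed by 2-fold or more at 0.709% of probes (5 h minus 1 h) and 0.548% (8 h minus 5 h), while 23 h differed from 8 h at 52.9% of 6063 probes.

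The shift, defined for each probe as the 23 h value minus the mean of the early values, was tested with limma on 6114 probes. A probe was called when its Benjamini-Hochberg adjusted p was under 0.05 and the shift was at least 2-fold. By this rule 1478 probes were higher at 23 h (24.2% of those tested) and 1753 were lower (28.7%), or 52.8% together. The direction that held more calls depended on centring. The median shift over all probes was -0.18, and with each sample centred on its own median 1688 probes were higher and 1458 lower. A further 1220 probes had an adjusted p under 0.05 with a shift under 2-fold. The standard error (SE) of a shift had a median of 0.214. Without a test, the 23 h value lay outside the range of the early values at 91.4% of probes, above it at 2530 (41.4%) and below it at 3061 (50.1%).

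Rises reached further than falls. Shifts of 4-fold or more were called upward at 763 probes and downward at 634, of 8-fold at 374 and 152, of 16-fold at 183 and 12, and of 32-fold at 78 and 1. The largest rise was that of the unnamed probe 14965, at 8.90 at 23 h against -0.60, -0.01 and -0.20 at 1, 5 and 8 h, a shift of 9.17 ± 0.252 (SE). Next came probe 2468, with a shift of 8.96 ± 0.214. The largest fall was that of probe 11808, at -4.88 at 23 h against 0.63, 0.52 and 0.24, a shift of -5.35 ± 0.221. The falls thus ended near 40.7-fold, while the rises reached 574-fold.

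**Figure D1:**
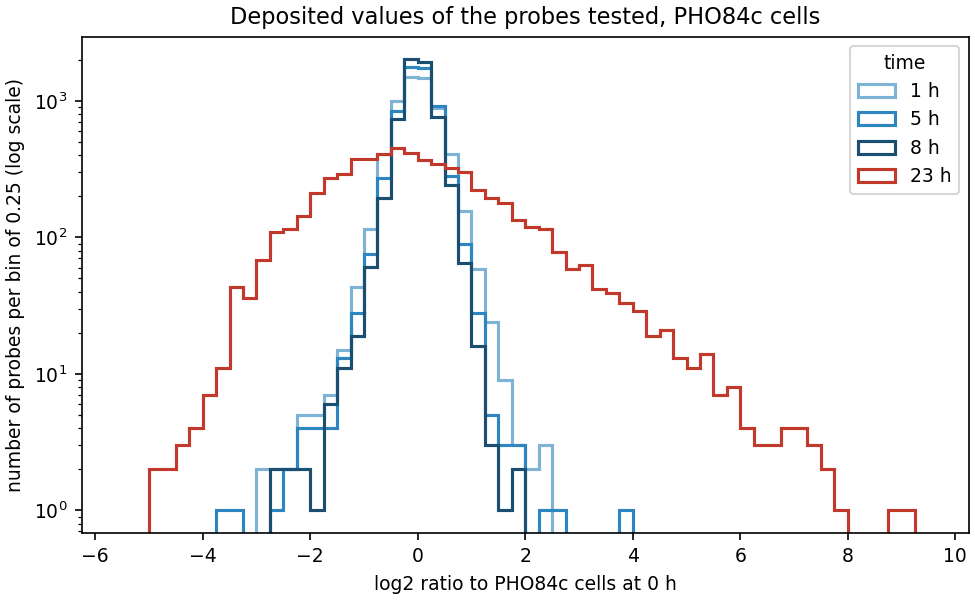
Number of probes (log scale) by log2 ratio to PHO84c cells at 0 h, in bins of 0.25, for the samples at 1, 5, 8 and 23 h. The early samples form narrow peaks around 0 (SD 0.439, 0.374 and 0.325), while the 23 h sample is wide (SD 1.68), with a longer arm on the side of rises.

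Little of the late pattern could be seen at the early times. The probes called higher had a median of 1.91 at 23 h, against -0.17, -0.12 and -0.08 at 1, 5 and 8 h. Those called lower had a median of -1.62, against 0.15, 0.11 and 0.07. The early medians lean away from the later change, and since the early mean enters the shift, part of this lean comes from how the probes were selected. From 1 to 8 h the probes called higher moved by a median of 0.10 and those called lower by -0.03. The 8 h value was above the 1 h value at 59.4% of the first, 46.2% of the second and 52.6% of the probes not called.

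At 8 h, 6 of the 1478 probes called higher already stood 2-fold or more above 0 h, and 31 stood 2-fold or more below it. The 6, chosen after their values were seen, were SRD1 and the unnamed probes 15377, 15469, 3615, 3850 and 7102. Probe 7102 had the values 5.94 at 23 h and 0.22, 1.37 and 1.25 at 1, 5 and 8 h. Of the 1753 probes called lower, 4 stood 2-fold or more below 0 h at 8 h, and 12 stood as far above it. These 4 were AMS1 and the unnamed probes 10465, 12598 and 13283. The 8 h value enters the early mean, so these counts come in part from how the probes were selected. Of the 2883 probes not called, 4 stood 2-fold or more above 0 h at 8 h and 8 stood as far below it. At 23 h most called probes had left the level of 0 h: 1336 of those called higher were 2-fold or more above it and 1560 of those called lower were 2-fold or more below it. The remaining 142 and 193 were within 2-fold of 0 h at 23 h.

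**Figure D2:**
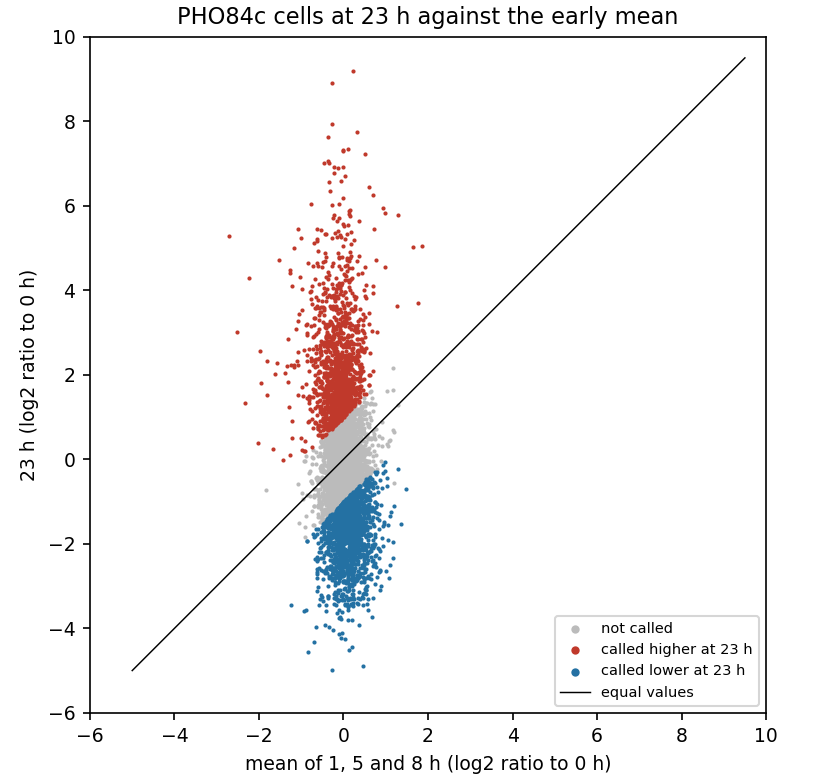
The log2 ratio to 0 h at 23 h (vertical axis) against the mean of 1, 5 and 8 h (horizontal axis) for each probe tested in PHO84c cells. The early means lie near 0 in most probes, and the 1478 probes called higher and 1753 called lower spread along the vertical axis.

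Of 1572 listed probes tested, 384 were called higher (24.4%) and 445 lower (28.3%), or 52.7% together. FET4 rose most among them. FET4 encodes a low-affinity iron transporter of the plasma membrane. It stood at 7.93 at 23 h, against -0.15, -0.42 and -0.22 at 1, 5 and 8 h, a shift of 8.20 ± 0.208 (294-fold, limma adjusted p = 2.36e-08). SCT1, an acyltransferase of the first step of phospholipid synthesis from glycerol 3-phosphate, stood at 7.02, against -0.36, -0.48 and -0.54, a shift of 7.48 ± 0.2 (178-fold). EPT1, which makes phosphatidylethanolamine, followed the same course at 5.35 against 0.10, -0.24 and -0.46 (shift 5.55). In all 3 the late value lay far above the range of the early ones.

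KOG1, a subunit of the growth-controlling TORC1 complex, stood at 6.59 at 23 h, against -0.59, -0.02 and 0.46 (shift 6.64 ± 0.342). XDJ1, a J-domain chaperone, had the widest early spread of the 12 largest listed rises. It stood at 4.99, against -2.30, -0.91 and -0.29, so that its shift of 6.16 ± 0.586 (adjusted p = 1.21e-05) includes a return from a low level at 1 h. KRE1, a protein of cell wall glucan assembly, stood at 5.43 against -1.11, -0.28 and -0.18 and likewise was lowest at 1 h. PPG1, a protein phosphatase, stood at 5.11 against -1.01, -0.74 and -0.36 (shift 5.81). These last 3 climbed from 1 to 8 h, but none had reached its 0 h level by 8 h.

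The ribosome assembly factors NIP7, RPF1 and SRD1 were also among the 12 largest listed rises. NIP7 stood at 5.64, against -0.26, -0.25 and 0.04 (shift 5.80 ± 0.214). RPF1 stood at 5.30, against -0.13, -0.03 and -0.09 (shift 5.39 ± 0.196), with hardly any early movement. SRD1, which acts in processing of ribosomal RNA, stood at 6.26, against 0.28, 0.73 and 1.10 (shift 5.55 ± 0.295), and was the only one of the 12 that was 2-fold above 0 h at 8 h. ATP1, the alpha subunit of mitochondrial ATP synthase, shifted by 5.77 ± 0.226, and PAU6, a seripauperin of the cell wall, by 5.53 ± 0.321.

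Among the falls, MMT1, a mitochondrial iron transporter, came first. It stood at -3.73 at 23 h, against 0.74, 0.82 and 0.45 at 1, 5 and 8 h, a shift of -4.40 ± 0.22 (21-fold, limma adjusted p = 3.88e-07). SEC9, a membrane fusion protein of secretion, stood at -3.93, against 0.20, 0.48 and 0.41 (shift -4.29 ± 0.209). HTS1, histidyl-tRNA synthetase, stood at -3.56, against 0.67, 0.53 and 0.54 (shift -4.14 ± 0.199). All 3 were above their 0 h level at each early time and far below it at 23 h.

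PTC1, a protein phosphatase of stress signalling, stood at -4.24, against 0.04, -0.27 and 0.05 (shift -4.18). YNG1, a subunit of a histone acetyltransferase, shifted by -4.02, GIP1, a meiotic partner of the phosphatase Glc7, by -3.73, and DSE1, a daughter-cell protein, by -3.70. SEC21, a COPI coat subunit, shifted by -3.67, LCB2, which starts sphingolipid synthesis, by -3.65, and the kinetochore protein NSL1 by -3.63. MBP1, the DNA-binding subunit of a factor of the G1 to S transition, stood at -2.81, against 0.66, 1.95 and 0.59. Its shift of -3.88 ± 0.455 (adjusted p = 4.67e-05) had the largest SE of the 12. AMS1, the vacuolar alpha-mannosidase, stood at -4.55, against -0.51, -0.51 and -1.50 (shift -3.71 ± 0.362), and was the one fall of the 12 that was more than 2-fold below 0 h at 8 h.

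**Figure D3:**
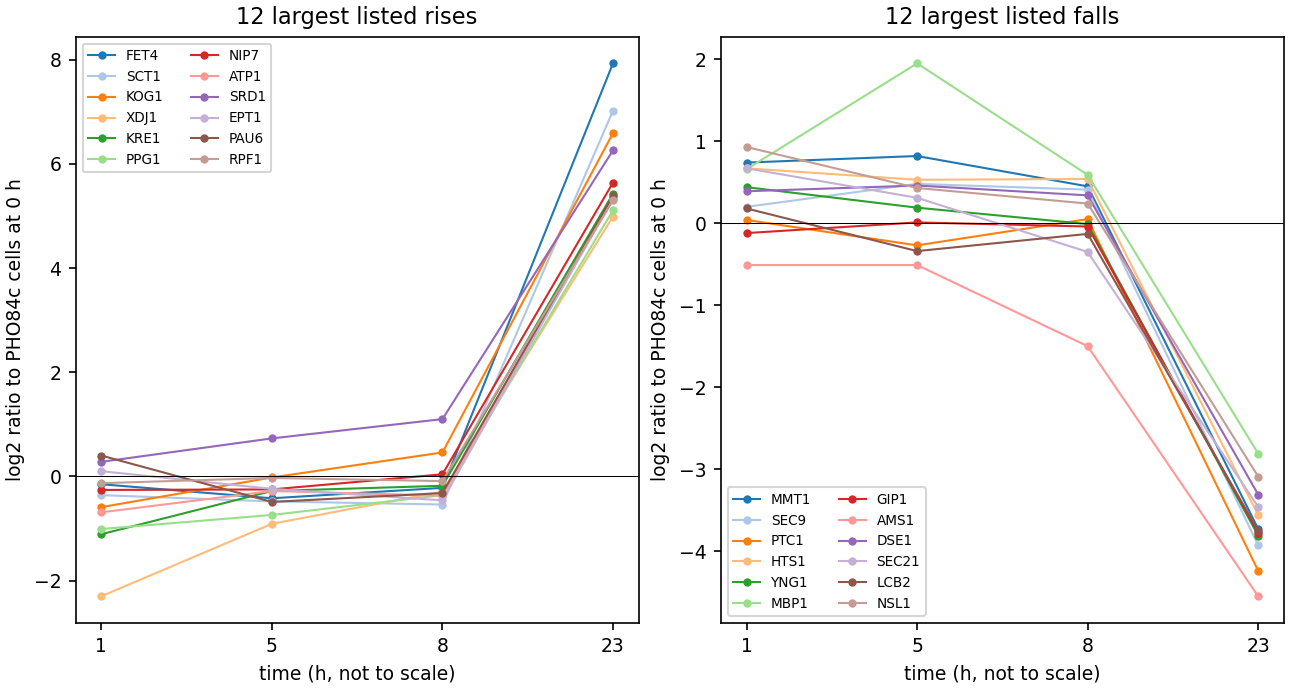
Log2 ratio to PHO84c cells at 0 h at 1, 5, 8 and 23 h (time axis not to scale, 1 sample per time) for the 12 largest listed rises (left) and the 12 largest listed falls (right). Lines stay within about 1 of 0 to 8 h, apart from XDJ1, KRE1 and PPG1 at 1 h, SRD1 and AMS1 at 8 h and MBP1 at 5 h, and part from 0 at 23 h.

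The PHO regulon had 6 listed probes, of which 5 could be tested, with 1 called higher and 1 lower (40% called, against 52.8% over all probes). VTC4, the catalytic subunit of the vacuolar polyphosphate polymerase, rose. It stood at 1.83 at 23 h, against -0.33, -0.24 and -0.28 at 1, 5 and 8 h, a shift of 2.12 ± 0.195 (4.35-fold, limma adjusted p = 9.92e-06). HOR2, a glycerol 3-phosphatase, fell. It stood at -1.32, against 0.51, 0.48 and 0.09, a shift of -1.67 ± 0.23 (adjusted p = 0.000133). The early values of VTC4 were all below 0 and within 0.1 of each other, whereas those of HOR2 were all above 0. With quantile normalization VTC4 kept its call (1.31) and HOR2 lost it (-1.20).

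The other PHO regulon probes passed no call. GIT1, a transporter of glycerophosphoinositol and phosphate, stood at -0.67, against -0.15, -0.15 and 0.01 (shift -0.58, adjusted p = 0.026). PHM7 stood at -1.30, against -0.84, -0.14 and -0.32 (shift -0.87, adjusted p = 0.0173), and without the 1 h sample its shift was -1.07 and was called. PHO8, the vacuolar alkaline phosphatase, stood at -0.14, against -0.31, 0.26 and 0.31, inside the early range. PHO81, the inhibitor of Pho80 and Pho85, had the early values -0.23, -0.17 and 0.02 and no value at 23 h. The median shift of the 5 tested probes was -0.58, against -0.18 over all probes tested.

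Among 6 regulators and transport proteins of the pathway, 1 was called higher and 2 lower (50%, against 52.8% over all probes). PHO88, an endoplasmic reticulum protein linked to phosphate transport, stood at 0.94 at 23 h, against -0.50, -0.49 and -0.34 (shift 1.38 ± 0.199, adjusted p = 0.000182). SYG1, related to phosphate exporters, stood at -1.52, against 0.26, 0.08 and -0.00 (shift -1.63 ± 0.207, adjusted p = 7.58e-05). PHO2, the partner of Pho4, stood at -0.72, against 0.90, 0.31 and -0.13 (shift -1.08 ± 0.34, adjusted p = 0.017). The PHO2 probe had been falling since 1 h, and its call was lost without the 1 h sample (-0.81) or with median centring (-0.89). With quantile normalization the calls of PHO88 (1.23), SYG1 (-0.77) and PHO2 (-0.88) were lost. In a test against the 2-fold limit itself (limma treat), PHO88 and PHO2 were not called.

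PHO80, the cyclin that restrains Pho4, stood at 1.08, against -0.28, 0.31 and 0.31. Its shift of 0.96 ± 0.267 was just under 2-fold, and it reached the threshold with median centring (1.15) and without the 5 h or the 8 h sample (1.06 each). KCS1, an inositol phosphate kinase of phosphate sensing, shifted by 0.56, and the low-affinity transporter PHO87 by 0.12, both without a call. The median shift of the 6 was 0.34.

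The gene lists for growth held calls in both directions, and their counts are to be read against 24.2% higher and 28.7% lower over all probes. Of 53 cytosolic ribosomal protein probes, 13 were higher and 14 lower (median -0.24), or 50.9% called, near the 52.8% over all probes. RPS23A (4.22), RPL11B (4.04) and RPL4A (2.98) rose, and RPL15A fell (-3.42). Of 26 ribosome assembly probes, 9 were higher and 4 lower (median 0.42), with RRP12, a factor of ribosome export, at 2.83 and FAL1, an RNA helicase, at -2.72 beside NIP7 and SRD1. RPF1, named above, is not a member of this list. Cell cycle probes had 3 higher and 7 lower of 16 (median -0.66), or 62.5% called, against 52.8% over all probes, with no test of the list. CDC28, the main cyclin-dependent kinase, stood at -4.33 at 23 h, against -0.93, -0.69 and -0.50 (shift -3.62), and POL30, the sliding clamp of replication, shifted by -2.78. The mitotic cyclin CLB3 went the other way (3.16).

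Amino acid synthesis had 6 probes higher and 2 lower of 16 (median 0.29), or 50% called, near the 52.8% over all probes (24.2% higher and 28.7% lower). MET17, of sulphide assimilation, stood at 4.56, against -1.30, -0.56 and -0.33 (shift 5.29), GLN1, glutamine synthetase, shifted by 2.66 and LEU1 by 2.60, while HOM2 of threonine and methionine synthesis fell (-2.56). The proteasome had 3 higher and 2 lower of 11 (45.5% called, median 0.00), with PRE7 (2.17), PRE9 (1.95) and RPN4 (1.41) higher and PUP1 (-2.01) lower.

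The stress list held more calls downward than upward. Of 16 general stress probes, 1 was higher and 9 were lower (median -1.15), against 24.2% and 28.7% over all probes. HSP12, a small membrane-bound heat shock protein, stood at -1.05 at 23 h, against 0.68, 0.81 and 0.92 (shift -1.85 ± 0.204, limma adjusted p = 3.13e-05). The glucose-phosphorylating enzymes GLK1 (-2.47) and HXK1 (-2.03) fell with it, and both are also counted in the glycolysis list below. Trehalose and glycogen had 1 higher and 3 lower of 10 (median -0.39), or 40% called, with the lower share near the 28.7% over all probes. TPS1, trehalose phosphate synthase, stood at -0.97, against 0.55, 0.63 and 0.46 (shift -1.51). UGP1, which makes UDP-glucose, shifted by -1.62 and phosphoglucomutase PGM1 by 2.46. The falls counted in this list include GIP1 (-3.73), the meiotic partner of Glc7 named above. TPS1, TSL1, NTH1 and GSY2 are also counted in the stress list. The early values of HSP12 and TPS1 were all above 0.

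Probes for growth on ethanol and acetate, the gluconeogenesis and glyoxylate cycle, showed 0 higher and 5 lower of 7 (median -2.03), or 71.4% called, against 24.2% higher and 28.7% lower over all probes. ADH2, the ethanol-oxidizing alcohol dehydrogenase, stood at -2.54, against -0.35, -0.49 and -0.32 (shift -2.16 ± 0.2). ALD4, a mitochondrial acetaldehyde dehydrogenase, shifted by -2.16 and MDH2, cytosolic malate dehydrogenase, by -2.03. CIT2, the peroxisomal citrate synthase, stood at -2.36, against 1.04, 0.04 and -0.41 (shift -2.58 ± 0.442, adjusted p = 0.000548), and had been falling through the early times. With quantile normalization ADH2 (-0.34), ALD4 (-1.19), MDH2 (-0.89) and CIT2 (-1.30) lost their calls. Glycolysis was split, with 3 higher and 3 lower of 8 (75% called, median 0.19). ADH1, the fermentative alcohol dehydrogenase, stood at 4.64, against -0.16, -0.28 and -0.32 (shift 4.89), and ENO1 shifted by 2.14, while GPM1 shifted by -2.26. The other glycolysis falls were GLK1 and HXK1, already counted in the stress list.

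Mitochondrial lists are set here against 52.8% called over all probes. The respiratory chain and ATP synthase had 4 higher and 4 lower of 12 (66.7% called, median -0.25). QCR8 of complex III (3.51) and COX8 of complex IV (3.20) rose with ATP1, and the external NADH dehydrogenase NDE1 fell, at -3.60 at 23 h against -0.12, -0.09 and 0.10 (shift -3.57). Of 5 tricarboxylic acid cycle probes, 1 was higher, the isocitrate dehydrogenase subunit IDH1 (2.11), and none was lower. Mitochondrial ribosomal proteins had 4 higher and 7 lower of 21 (52.4% called, median -0.60), from MRP51 at 2.93 and MRPL27 at 1.64 to MRPL33 at -1.68 and MRPL31 at -1.92.

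Autophagy probes moved upward when they moved. Of 8, 5 were higher and none lower (median 1.15), against 24.2% and 28.7% over all probes. APG1, the kinase that starts autophagy, stood at 4.24, against 0.17, 0.20 and -0.04 (shift 4.13 ± 0.206, adjusted p = 3.88e-07). APG5, of the conjugation system, stood at 2.66, against -0.12, -0.31 and -0.17 (shift 2.86). APG10 (2.74) and APG7 (1.17), enzymes of the same system, also rose, but with quantile normalization both lost their calls (0.62 and 0.85). Vacuolar hydrolases and the proton pump had 1 higher and 1 lower of 7 (28.6% called, median -0.37), the aminopeptidase DAP2 (3.23) and the pump subunit VMA4 (-1.14). With median centring VMA4 was at -0.95, without a call.

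Probes of the zinc and iron regulons covered the widest range of the lists, with its upper end set by FET4 alone (8.20). Of 15, 3 were higher and 5 lower (53.3% called against 52.8% over all probes, median -0.41). Beside FET4, the vacuolar transporters SMF3 for iron (3.64) and CTR2 for copper (2.54) rose, and FIT2, a cell wall protein that binds iron carriers, fell (-3.51). Secretory pathway probes had 7 higher and 10 lower of 27 (63% called, median -0.69). The vesicle membrane protein SNC1 stood at 4.41, against 1.22, 0.10 and 0.02 (shift 3.96 ± 0.41), and the GTPase SEC4 fell (-2.99). Peroxisome and fatty acid oxidation had 5 higher and 3 lower of 14 (57.1% called, median 0.34), with the acyl-CoA synthetase FAA4 at 5.14 and the oxidation enzymes POT1 (2.60) and POX1 (2.21). The falls of this list include CIT2, already counted with gluconeogenesis. Ergosterol synthesis had 3 higher and 1 lower of 10 (median -0.16, or 0.03 with median centring, the 1 list of 22 whose median changed sign), namely NCP1 (3.60), ERG8 (3.38), HMG2 (1.01) and HES1 (-2.06). HMG2 fell below 2-fold without the 1 h (0.90) or the 5 h sample (0.96).

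Of 16 meiosis and sporulation probes, 2 were higher and 5 lower (43.8% called against 52.8% over all probes, median -0.48), among them SPO22 (2.47), SPS1 (-1.96), SPO69 (-1.89) and REC107 (-1.62). Of 7 mating type probes, 1 was higher and 2 were lower (42.9% called, median -0.23). STE3, the receptor for a-factor, which marks alpha cells, shifted by 2.23. STE6, the a-factor exporter of a cells, stood at -0.57, against 0.80, 0.60 and 0.59 (shift -1.23), and STE18 (-1.07) was called lower, but not without the 8 h sample (-0.89) or with median centring (-0.88). MFA1 (-0.74) and MFA2 (-0.11), which encode a-factor, passed no call, nor did MATALPHA1 (-0.23) and MATALPHA2 (0.92), regulators encoded at the mating type locus of alpha cells. Thus 1 of 3 markers of a cells was called, downward, and 1 of 3 markers of alpha cells, upward, and their part in the other results was not tested.

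**Figure D4:**
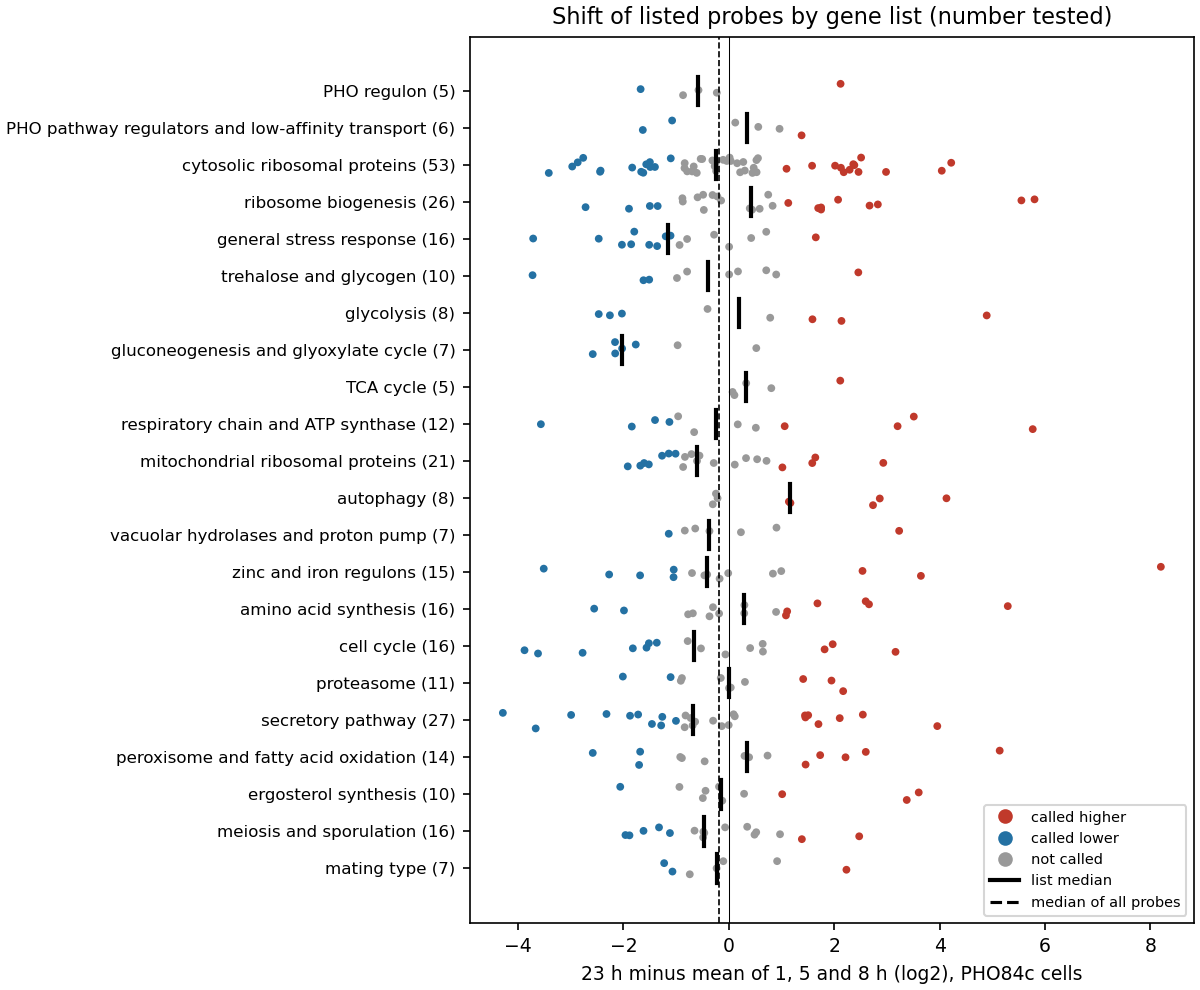
Shift of each listed probe tested in PHO84c cells (23 h minus the mean of 1, 5 and 8 h, log2), by gene list, with the number tested in parentheses, a bar at the list median and a dashed line at the median of all probes (-0.18). Most lists hold probes called higher and probes called lower, while gluconeogenesis (0 higher, 5 lower), autophagy (5 higher, 0 lower) and the tricarboxylic acid cycle (1 higher, 0 lower) hold calls in 1 direction.

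The early samples were close to one another at most probes. The SD over 1, 5 and 8 h had a median of 0.165 and a 95th percentile of 0.424, and 154 probes (2.52%) had an early range of 2-fold or more, of which 97 were called. The listed probes with the largest early spread were HPA3, LAS17, CAF17, XDJ1 and CTF3. HPA3, an acetyltransferase, stood at 1.39 at 23 h, against -1.99, 0.85 and -0.59. Its shift of 1.96 ± 0.79 barely passed (adjusted p = 0.0474) and was lost under 4 alternatives that kept the value, with HPA3 at an adjusted p from 0.0524 to 0.33, and with quantile normalization (1.14).

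LAS17, an actin regulator, stood at 0.73, against -2.17, 0.11 and 0.21. It shifted by 1.34 ± 0.75 (adjusted p = 0.132), a 2-fold difference without a call, and it was called without the 5 h (1.71) or the 8 h sample (1.76) and in a fit to all 16 samples. CAF17, a mitochondrial iron-sulphur protein, stood at 0.64, against 0.44, 2.39 and 0.75 (shift -0.55), and without its high 5 h sample the shift was 0.05. CTF3, a kinetochore protein, stood at 0.93, against 1.46, 0.76 and -0.29 (shift 0.28), and without the 8 h sample the shift was -0.19. Neither CAF17 nor CTF3 had a settled direction.

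The late shift of PHO84c cells was then set against that of WT cells, which were sampled at the same times and have a 0 h reference of their own. Over 6078 probes tested in both strains the shifts correlated at r = 0.939 (Pearson, across probes, which are not independent replicates). A given time had the same block number for both strains, on 1 slide per strain, so strain and slide cannot be told apart. In WT itself, 21.7% of 6192 probes were called higher and 25% lower, or 46.6% together. Of 1471 probes called higher in PHO84c and 1322 in WT, 1171 were shared, or 79.6% and 88.6% of each list. Of 1743 and 1516 called lower, 1303 were shared, or 74.8% and 85.9%. The median absolute shift was 1.08 in PHO84c and 0.94 in WT, and it was larger in PHO84c at 59.2% of probes. Only probe 767, singled out after its values were seen, was called in opposite directions. In PHO84c it stood at 1.42 at 23 h against -0.34, -0.05 and 0.13, and its WT shift was -1.18.

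Tested as an interaction of strain and phase over the 8 later samples, the PHO84c shift was above the WT shift at 123 probes (2.02%) and below it at 64 (1.05%), or 3.08% together. These counts depend on single samples. Without the PHO84c 5 h sample they were 13 and 8, without the WT 5 h sample 67 and 36, and without the WT 8 h sample 40 and 19. Of the 123, 77 had shifts of the same sign in both strains, and 37 were called higher in both, so that many differed in size rather than in direction. Of the 64, 53 had shifts of the same sign and 18 were called lower in both.

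Listed probes with a larger shift in PHO84c were led by ISA1, an iron-sulphur cluster assembly protein. In PHO84c it stood at 1.78 at 23 h against -0.09, -0.15 and -0.10 (shift 1.89), and in WT at -0.15 against 0.30, 0.70 and 0.76 (shift -0.73), a difference of 2.63 ± 0.293 (limma adjusted p = 0.00489). WTM1, a transcriptional modulator, shifted by 3.19 in PHO84c and 0.90 in WT, and SBE22, of bud growth, by 3.67 and 1.58. SCT1 shifted by 7.48 and 5.56, a difference of 1.92 ± 0.313 (adjusted p = 0.0202). PLC1, phospholipase C, shifted by 1.17 in PHO84c and -0.64 in WT.

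Listed probes with a lower shift in PHO84c were led by INP51, an inositol phosphate phosphatase of the membrane. In PHO84c it stood at 1.90 at 23 h against 0.26, 0.44 and 0.38 (shift 1.53), and in WT at 5.28 against 0.20, 0.64 and 0.51 (shift 4.83), a difference of -3.29 ± 0.291 (adjusted p = 0.0018). GAS4, a glucan-modifying enzyme of spore walls, shifted by -0.47 in PHO84c and 2.28 in WT (difference -2.75). RRD2, a phosphatase activator, shifted by -3.13 and -1.19, with PHO84c early values of 1.04, 1.04 and 1.44 against WT early values of -0.07, 0.14 and 0.21. NGL1 shifted by -1.31 in PHO84c and 0.47 in WT, and JIP3 by -2.75 and -0.99. Without the PHO84c 5 h sample the calls of SBE22, SCT1, RRD2, NGL1 and JIP3 were lost, at adjusted p from 0.0514 (SBE22) to 0.0974 (JIP3), with differences of 1.90 for SCT1 and -1.74 for NGL1.

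Of the PHO pathway probes, KCS1 was the only one with a called difference (1.24 ± 0.256, adjusted p = 0.0395), from a shift of 0.56 in PHO84c and -0.68 in WT. The KCS1 call was lost without the 1 h (adjusted p = 0.0538) or 5 h (0.112) sample of PHO84c, without the 1 h (0.0526), 5 h (0.061) or 8 h (0.0802) sample of WT, and with quantile normalization (difference 0.38). The VTC4 shifts were 2.12 and 2.16, a difference of -0.04 ± 0.227 (adjusted p = 0.942). HOR2 shifted by -1.67 in PHO84c and -0.60 in WT (difference -1.08, adjusted p = 0.157), and SYG1 by -1.63 and -0.39 (-1.24, adjusted p = 0.107). Both differences exceeded 2-fold without passing the test.

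**Figure D5:**
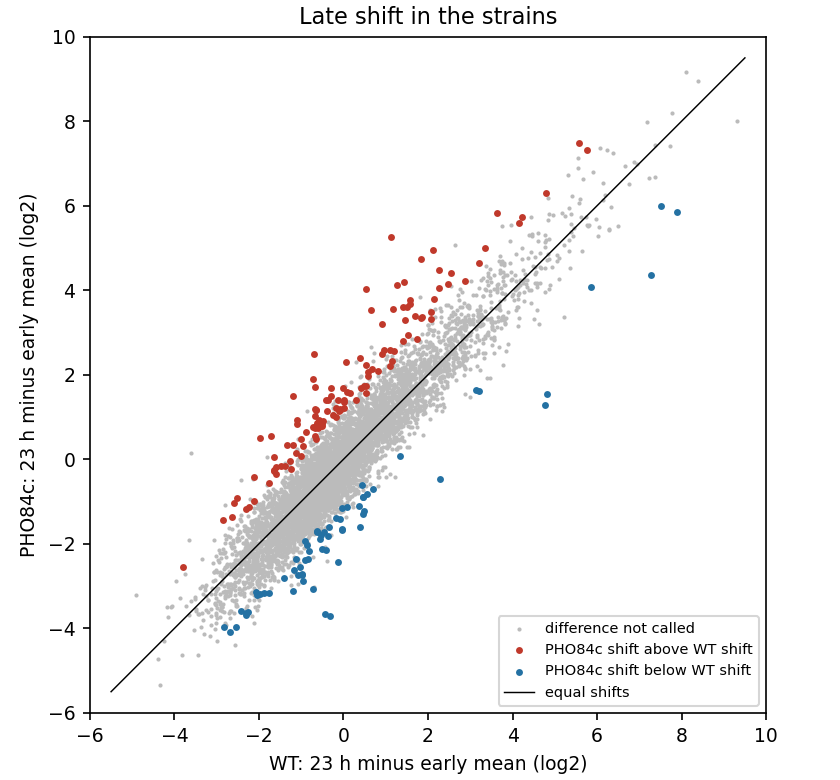
The shift in PHO84c cells (vertical axis) against that in WT cells (horizontal axis), each 23 h minus the mean of 1, 5 and 8 h on the log2 scale, for 6078 probes. Most lie along the line of equal shifts (r = 0.939), with 123 called above it and 64 below.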

How the data were processed

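Per the labels' protocols, total RNA was amplified and labelled with Agilent kits, hybridized to dual-colour arrays and read with SpotReader. The sources used here do not state how background was corrected or signals were normalized. As deposited, each value was read as a log2 ratio of a sample to the 0 h samples of its strain and dye. Scale and direction were checked on the PHO84c Cy3 pair at 0 h, over 20 probes with a value beyond 0.3. Read as log2 of sample over 0 h, the pair means missed 1 by a median of 0.0057, against 0.0771 with the ratio turned and 0.0208 with natural logarithms. The WT Cy3 pair (118 probes) separated the directions less, at 0.0638 against 0.0814. What the centring was is unknown: sample medians were -0.19 at 23 h and 0.00 at the early times, to 2 decimals.

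Shifts were fitted with limma 3.58.1 (R 4.3.3, lmFit and eBayes) on 4 samples, for features with a 23 h value and at least 2 early values. The script was tested on simulated data. Probes listed as FDH2 were averaged (6254 features). There were 0 columns of other samples. The strain difference used 8 samples.

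The members and lists were chosen with earlier results of these data known. Some lists share probes, so their counts are not separate results. Named are the 12 largest listed rises and falls, all PHO pathway probes, up to 4 called members per list, the 5 largest strain differences each way, the 5 largest early spreads and at most 2 unnamed probes each way. The planned promoter motif count was not made, as no sequences were given. No probes could be filtered on signal.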

Additional observations from a re-analysis of the deposited data

Results flagged for a closer look

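The strain difference of the late shift is listed here because a test of the difference itself passed. Of 6078 probes tested, the PHO84c shift was called above the WT shift at 123 and below it at 64. Of the 123, 80 were called higher in PHO84c and 37 in WT. Of the 64, 49 were called lower in PHO84c and 18 in WT. Among listed probes the differences (PHO84c minus WT, log2) were 2.63 for ISA1, 2.29 for WTM1, 2.09 for SBE22, 1.92 for SCT1 and 1.81 for PLC1. On the other side they were -3.29 for INP51, -2.75 for GAS4, -1.94 for RRD2, -1.78 for NGL1 and -1.76 for JIP3. Among unnamed probes they were 4.15 for probe 14143 (5.34 at 23 h in PHO84c and 1.36 in WT), 3.50 for probe 5032, -3.48 for probe 13191 and -3.39 for probe 3394 (-3.40 at 23 h in PHO84c and -0.22 in WT). Without the PHO84c 5 h sample the calls of SBE22 (limma adjusted p = 0.0514), SCT1 (0.066), RRD2 (0.0529), NGL1 (0.0738), JIP3 (0.0974) and probe 5032 (0.0529) were lost. JIP3 was also lost without the WT 1 h (0.0526) or 8 h sample (0.0727). With quantile normalization none of these differences was called. Each strain had 1 array at 23 h, and the part of the array in these differences was not tested.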

How the results depend on the processing

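No paired analysis was possible because the later samples carry no replicate numbers. With the strains paired by time instead (time as a block), the strain difference was called at 162 probes higher and 85 lower, with 169 of the 187 calls shared. The 1478 higher and 1753 lower calls were 394 and 311 with quantile normalization. By construction it gives all samples compared the same distribution, narrower than that at 23 h and wider than those at the early times. With a test against the 2-fold limit itself (limma treat) the calls were 1016 and 1058. Leaving out each early sample gave 1463 to 1480 higher and 1726 to 1745 lower. The strain difference gave 0 and 0 calls with quantile normalization (limma, 130 at an unadjusted p under 0.05), and 13 to 119 higher and 8 to 67 lower without single early samples. Some signs turned. With quantile normalization PHM7 was at 0.26, PHO87 at -0.00, GAS4 at 0.13 and CTF3 at -0.77, and the strain difference of GAS4 was 1.66, against -2.75 as reported and -2.89 to -2.59 without single early samples; the cause was not tested. Without single early samples CAF17 ran from -0.93 to 0.05 and CTF3 from -0.19 to 0.69. Of the other values of named probes under an alternative, 1252 kept direction and call, 112 lost a call and 7 gained one. Most of the 112 came from quantile normalization, with 54 shifts and 17 strain differences. Under it, 61 named shifts kept direction and call. Of the list medians under median centring or without an early sample, 41 moved by more than the SD of that list's early medians and 47 did not; with centring the median of ergosterol synthesis changed sign (0.03). The planned promoter motif count was not run.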

Other observations

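Some probes lacked a value at 23 h. Of 118 such features in PHO84c, 55 had values at 1, 5 and 8 h, and 48 of these had a value in WT at 23 h. PHO81 is among the 118. No cause was tested.

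A shift of 2-fold or more without a call was seen at 5 probes, listed after their values were seen, and their early values were widely spread. Probe 9920 stood at -0.56 at 23 h, against -0.54, 3.88 and 0.23 at 1, 5 and 8 h. Probe 6921 stood at -0.73, against -2.40, -3.52 and 0.42. UIP4, a protein of the nuclear envelope, stood at -0.47, against 0.28, 1.60 and -0.02, and probe 11818 at -0.22, against 1.70, 0.89 and -0.20. The fifth was LAS17.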
